A study of Homo sapiens with 19 samples.

Results

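The mRNAs described here encode the proteins that shape transport vesicles between the organelles of the secretory path. They are 34 of the 58051 human genes in the deposited count tables, and they were taken by gene symbol from a list of coat genes. The rule uses no measured value, but the list was drawn up with earlier results of these data known. The list holds 8 subunits of the COPI coat, 10 genes of the COPII coat, 6 small GTPases that recruit these coats, the 3 clathrin chains and 7 subunits of clathrin adaptors. The list was drawn up under a name that also mentions tethering, but none of the 34 genes encodes a tethering factor, so tethers are given as a separate list of 49 genes. All 34 mRNAs passed the filter on low counts.

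COPI coats bud vesicles at the Golgi apparatus and carry cargo back towards the endoplasmic reticulum, COPII coats bud vesicles at exit sites of the endoplasmic reticulum, and clathrin coats form at the trans-Golgi network, endosomes and the plasma membrane. A small GTPase in its GTP-bound state places the coat on the membrane: SAR1 recruits COPII, and ARF proteins recruit COPI and the AP1 and AP3 adaptors, while AP2 works at the plasma membrane. Coat proteins are cytosolic and cycle on and off membranes, and their mRNAs are in general read by ribosomes free in the cytosol. The receptors, enzymes and channels that travel in these vesicles are membrane proteins. Most of them carry a hydrophobic stretch that the signal recognition particle binds as it leaves the ribosome, so that they are made on the endoplasmic reticulum, whose membrane is continuous with the outer nuclear membrane.

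RNA was sequenced from untreated K562 cells, an established human erythroleukaemia line. The groups are the nuclear wash, the nucleus, the cytoplasm and the whole cell, each with 4 libraries depleted of rRNA, and an undepleted nuclear wash with 3 libraries prepared without that depletion. All groups received synthetic yeast transcripts as spike-ins. The labels do not say how the fractions were separated or what the wash removes from the nucleus, nor whether replicate libraries stem from separate cultures. The p-values therefore rest on library spread alone, and this spread may be technical. Column names split the libraries by a prefix, 1 for replicates 1 and 2 and 2 for replicates 3 and 4, and values within each prefix are given where they differ from the whole.

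Depth and identity were checked first. Exon counts totalled 1373755 to 7955415 per depleted library and 923464 to 1801293 per undepleted library, and the lowest count of a coat mRNA was 7, for CLTB in a nuclear library. All 10 erythroid markers passed the filter, and 4 of 12 markers of other cell types did, with KRT5, a keratin, at 0 in every nuclear, cytoplasmic and whole-cell library. The summed CPM (exon counts scaled to the library total, here without composition factors) of these 12 was 166 to 203 in the wash, 85.2 to 98.0 in the nucleus, 59.7 to 70.8 in the cytoplasm and 78.3 to 87.9 in whole cells. With TMM factors, EPCAM, an epithelial adhesion molecule, averaged 149 ± 23.0 CPM in the wash, 39.9 ± 9.57 CPM in the nucleus, 57.8 ± 7.72 CPM in the cytoplasm and 53.8 ± 5.62 CPM in whole cells (SD, n = 4 each). PECAM1 averaged 41.5 CPM and COL1A2 27.9 CPM in the wash, and both had lower means in the other groups, 12.4 to 15.7 CPM for PECAM1 and 4.71 to 11.5 CPM for COL1A2. The part of these markers in the values that follow was not tested.

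A feature in which many mRNAs of membrane cargo differ from coat mRNAs can be read in the first codons of the reading frame. Codons with T in the middle position encode only hydrophobic amino acids (phenylalanine, leucine, isoleucine, methionine and valine). For each gene the 30 codons after the start codon were read from the spliced GENCODE release 29 transcript on GRCh38, and the window of 12 codons with the most such codons was taken. In the sequences shown, codons with T in the middle, other than the start codon, are in capitals. SEC16A and COPZ1, the ends of the wash to cytoplasm comparison among coat mRNAs, and CLTC and ARF1 are set beside 2 membrane protein mRNAs. These 2 have the largest fold changes of their list there. COPA lay above CLTC, and COPE and CLTB lay below ARF1. COPA, COPE and CLTB reached 4, 5 and 3 such codons and are not shown. SEC16A lies at chr9:136440096-136483759 on the minus strand, CLTC at chr17:59619689-59696956 on the plus strand, COPZ1 at chr12:54301202-54351849 on the plus strand, ARF1 at chr1:228082660-228099212 on the plus strand, IGF2R at chr6:159969099-160113507 on the plus strand and SEL1L at chr14:81471549-81533861 on the minus strand.
SEC16A: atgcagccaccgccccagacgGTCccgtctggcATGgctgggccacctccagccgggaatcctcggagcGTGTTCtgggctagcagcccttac
CLTC: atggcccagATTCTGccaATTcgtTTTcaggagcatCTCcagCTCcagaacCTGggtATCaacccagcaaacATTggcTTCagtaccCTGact
COPZ1: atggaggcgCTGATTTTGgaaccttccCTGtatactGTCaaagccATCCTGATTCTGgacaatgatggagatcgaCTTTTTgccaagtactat
ARF1: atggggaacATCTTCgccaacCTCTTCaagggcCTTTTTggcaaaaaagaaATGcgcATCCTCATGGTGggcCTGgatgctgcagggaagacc
IGF2R: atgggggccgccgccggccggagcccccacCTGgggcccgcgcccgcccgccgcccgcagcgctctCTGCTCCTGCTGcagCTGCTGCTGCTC
SEL1L: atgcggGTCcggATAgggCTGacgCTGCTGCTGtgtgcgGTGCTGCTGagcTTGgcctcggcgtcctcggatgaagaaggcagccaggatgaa

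In these windows SEC16A reached 2 hydrophobic codons, CLTC and COPZ1 6 each and ARF1 7, while IGF2R, the cation-independent mannose-6-phosphate receptor, and SEL1L, a subunit of an endoplasmic reticulum ubiquitin ligase, reached 8 each. Over the 34 coat mRNAs the value ran from 2 to 7, with a median of 4. In 53 mRNAs of secretory path membrane proteins inserted during translation the median was 8, and 29 of the 53 lay above the highest coat mRNA. Among 11249 tested protein-coding genes with a reading frame in the annotation, 7.54% lay above it. The COPII coat and clathrin had the lowest median among the coat classes, 3 each, and the coat GTPases the highest, 7. ARF1, ARF3, ARF4 and ARF5 reached 7, and SAR1A and SAR1B 6. SAR1 and ARF proteins start with a short amphipathic helix that dips into the membrane, which is background and was not measured here.

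Levels of coat mRNAs spanned a wide range in every fraction. CPM values from here on carry TMM factors, under which the bulk of genes is taken not to differ. CLTC, the clathrin heavy chain, was the most abundant by CPM, with 1245, 1559.5, 886 and 1016 CPM in the wash, 581, 588, 578 and 548 CPM in the nucleus, 989.5, 975, 789.8 and 677 CPM in the cytoplasm and 905, 1049, 833 and 718 CPM in whole cells. Its nuclear libraries lay below all others. To set genes side by side, levels were divided by the kilobases of all annotated exons of a gene. By this measure ARF1 stood first in the wash (116 CPM per kb), the cytoplasm (198) and whole cells (102), and CLTC stood first in the nucleus (48.5). SEC23A was the lowest per kilobase in the wash (3.41), the nucleus (2.34) and whole cells (3.12), and SEC24D was the lowest in the cytoplasm (3.75). All annotated exons can be much longer than 1 transcript, with 8945 against 4135 bases for SEC23A and 9920 against 4030 for SEC24D. The lowest ranks rest on this choice of length and may change by transcript length. Neighbours in this order often overlapped: in the wash the libraries of ARF1 ran from 98.8 to 133.7 CPM per kb and those of CLTC, the next in rank, from 74.8 to 131.8 CPM per kb.

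**Figure D1:**
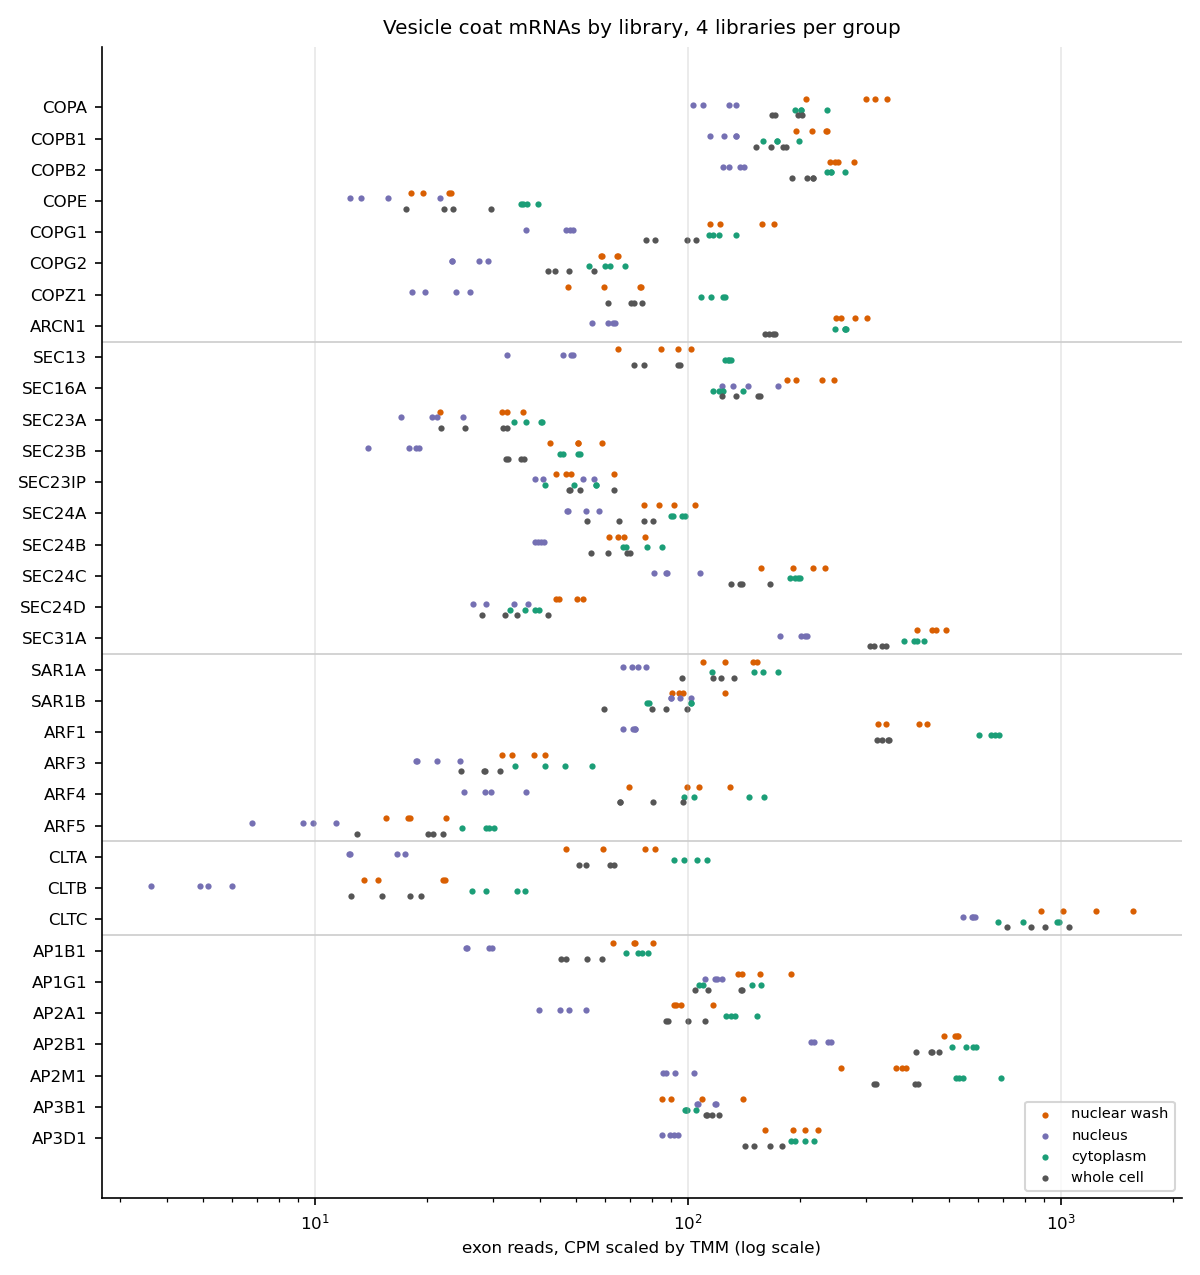
Exon reads of the 34 coat mRNAs by library, as CPM scaled by TMM on a log axis, with 4 points per group for the nuclear wash, nucleus, cytoplasm and whole cell. Horizontal lines divide the COPI coat, COPII coat, coat GTPases, clathrin and adaptors, and nuclear points lie to the left for most mRNAs, down to 3.63 CPM for CLTB.

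The summed level of the 34 mRNAs was 6138 ± 242 CPM in the wash, 2840 ± 74.1 CPM in the nucleus, 6284 ± 176 CPM in the cytoplasm and 4901 ± 147 CPM in whole cells (SD, n = 4 each). The wash and the cytoplasm overlapped in these sums, and the nucleus lay below every other library. By class, the sums in the wash and the cytoplasm were 1327 ± 131 and 1227 ± 52.9 CPM for COPI, 1290.2 ± 99.5 and 1198 ± 32.2 CPM for COPII, and 1261 ± 276 and 991 ± 150.1 CPM for clathrin. For the coat GTPases they were 772 ± 62.8 CPM in the wash and 1090.4 ± 84.8 CPM in the cytoplasm, and for the adaptors 1488 ± 63.9 CPM in the wash and 1777 ± 45.7 CPM in the cytoplasm, and in both of these classes the libraries did not overlap. Such a sum can rest on few abundant mRNAs. In the test given below, 4 of the 6 GTPases and 5 of the 7 adaptors were not called, at median log2 fold changes of -0.3 and -0.05. CPM are shares of a library, so less of an mRNA in a fraction and more of the other RNA there cannot be told apart, nor can fewer cells of a type and less RNA per cell.

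In the nuclear wash against the cytoplasm, coat mRNAs split in both directions. With edgeR's quasi-likelihood test, 5 of 34 were called higher (14.7%) and 9 were called lower (26.5%) at an adjusted p under 0.05, beside 22.8% higher and 21.4% lower among the 15940 genes tested. The median log2 fold change was -0.04 for the coat mRNAs and 0.05 for all genes. The share called higher was thus below that of all genes and the share called lower a little above it. Scaling changed the split. With no composition factor 2 were called higher and 9 lower, beside 20.6% and 23.7% of all genes. On gene-body counts, which include introns, 2 were called higher and 17 lower, beside 23.9% and 24.7% of 17015 genes at a median of 0.04. COPE, COPZ1 and AP2B1 are in that test although their gene-body counts miss exon reads, as described below. With library sizes set by the spike-ins 0 were called higher and 34 lower, beside 93.3% lower among all genes, at a median of -3.23 against -3.10 for all genes. The labels do not say to what amount of sample the spike-ins were added, so these values are not amounts of RNA. Within prefix 1 the counts were 3 higher and 12 lower, and within prefix 2 they were 5 higher and 8 lower. The shares of all genes within each prefix are not given here.

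**Figure D2:**
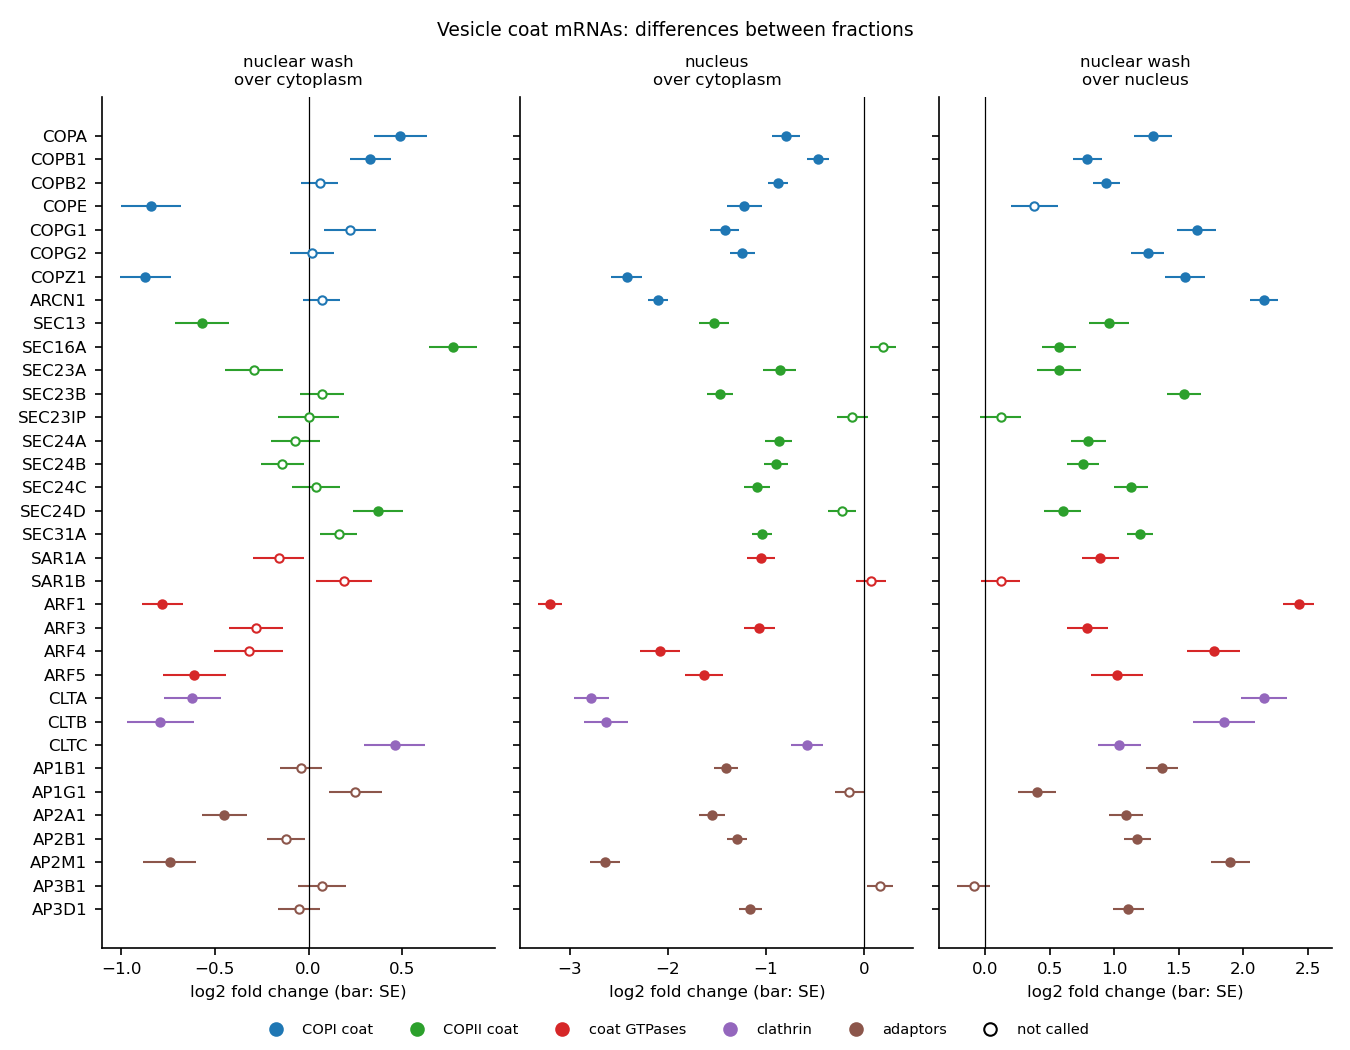
Log2 fold changes with standard errors from edgeR for the 34 coat mRNAs in the wash over the cytoplasm, the nucleus over the cytoplasm and the wash over the nucleus, coloured by class, with filled points called at an adjusted p under 0.05. In the first panel SEC16A is highest at 0.77 and COPZ1 lowest at -0.87, in the second ARF1 is lowest at -3.20, and in the third ARF1 is highest at 2.43. With spike-in library sizes 34 lie below 0 in the first comparison and 33 are called lower in the third. Of all 15940 genes, 15770 lie below 0 in the first and 14908 are called lower in the third.

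The COPII coat held the mRNA with the largest positive difference in the wash over the cytoplasm. SEC16A, at chr9:136440096-136483759, encodes the scaffold of endoplasmic reticulum exit sites on which the COPII coat assembles. It had 195, 185, 229 and 246 CPM in the wash and 123, 132, 174 and 145 CPM in the nucleus, against 117, 124, 140.5 and 121 CPM in the cytoplasm. The wash libraries lay above all nuclear and all cytoplasmic libraries, and the nucleus and the cytoplasm overlapped. SEC16A was higher in the wash than in the cytoplasm (log2 fold change 0.77 ± 0.13 SE, adjusted p = 7.22e-05) and than in the nucleus (log2 fold change 0.57 ± 0.13 SE, adjusted p = 0.000579), although with no composition factor the second difference was -0.12. Between nucleus and cytoplasm the difference was 0.19 ± 0.13 SE (adjusted p = 0.181). On gene-body counts this last value was -0.80, and with RLE factors it was 0.33 and called higher.

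SEC24D, one of the SEC24 subunits that bind cargo, had 45.3, 44.2, 52.4 and 50.3 CPM in the wash and 28.7, 26.5, 37.3 and 34.2 CPM in the nucleus, against 33.3, 36.7, 39.9 and 38.9 CPM in the cytoplasm. Its wash libraries lay above the others, and it rose in the wash over the cytoplasm (log2 fold change 0.37 ± 0.13 SE, adjusted p = 0.0298). That call was lost without cytoplasm replicate 1 or 2 or wash replicate 3 or 4, at log2 fold changes of 0.32 to 0.35 and an adjusted p of 0.0682 to 0.0945. The other SEC24 mRNAs did not pass the test, at -0.07 for SEC24A, -0.14 for SEC24B and 0.04 for SEC24C. SEC31A, the outer coat subunit that pairs with SEC13, was at 0.16, and the inner coat subunits SEC23A and SEC23B were at -0.29 and 0.07, none of them called. SEC13, a small subunit of the outer coat that is also part of the nuclear pore, fell in the wash: it had 84.6, 64.9, 94 and 102 CPM there against 128, 126, 130.5 and 129 CPM in the cytoplasm, with no overlap (log2 fold change -0.57 ± 0.14 SE, adjusted p = 0.00281).

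In the nucleus the COPII mRNAs were lower or not called. SEC13 had 46.2, 49.1, 48.7 and 32.7 CPM in the nucleus, below all its cytoplasmic libraries (log2 fold change -1.53 ± 0.15 SE, adjusted p = 1.1e-08). SEC23B had 13.9, 17.9, 19 and 18.7 CPM in the nucleus against 50.6, 46.1, 51.5 and 45.4 CPM in the cytoplasm, again without overlap (log2 fold change -1.47 ± 0.13 SE, adjusted p = 2.66e-09). SEC31A, SEC24C, SEC24B, SEC24A and SEC23A were also lower there, at -1.04, -1.09, -0.90, -0.87 and -0.86. On gene-body counts SEC24B turned to 0.44. Along with SEC16A, SEC24D (-0.23) and SEC23IP (-0.12), which binds SEC23, did not pass the test. SEC23IP had means of 50.8 CPM in the wash, 47 CPM in the nucleus, 51.1 CPM in the cytoplasm and 52.7 CPM in whole cells, and its libraries overlapped in every pair.

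In the COPI coat 2 mRNAs were called higher and 2 lower in the wash over the cytoplasm. COPA, the alpha subunit, at chr1:160288686-160343400, had 207, 300.1, 318 and 342 CPM in the wash and 109.8, 103, 129 and 135 CPM in the nucleus, against 201, 193, 236 and 201 CPM in the cytoplasm. Wash replicates 2 to 4 lay above every cytoplasmic library, and wash replicate 1 lay among them. COPA was higher in the wash than in the cytoplasm (log2 fold change 0.49 ± 0.14 SE, adjusted p = 0.00698). COPB1, the beta subunit, had 195, 236, 215 and 235 CPM in the wash against 174, 159, 199 and 173 CPM in the cytoplasm, with overlapping libraries (log2 fold change 0.33 ± 0.11 SE, adjusted p = 0.0213). Its call was lost without cytoplasm replicate 2 or 4 or wash replicate 2 or 4, at log2 fold changes of 0.27 to 0.31 and an adjusted p of 0.0535 to 0.0855, and both calls were lost on gene-body counts.

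COPZ1, the zeta subunit and the smallest of the coat, at chr12:54301202-54351849, had 47.8, 59.6, 75.1 and 74.5 CPM in the wash against 126, 115, 124 and 108 CPM in the cytoplasm. The highest wash library lay below the lowest cytoplasmic one (log2 fold change -0.87 ± 0.14 SE, adjusted p = 3.36e-05). COPE, the epsilon subunit, had 23.2, 18.1, 22.8 and 19.4 CPM in the wash against 36.1, 39.5, 36.9 and 35.6 CPM in the cytoplasm, again without overlap (log2 fold change -0.84 ± 0.16 SE, adjusted p = 0.00028). The remaining subunits COPB2, COPG1, COPG2 and ARCN1 lay between 0.02 and 0.22 and were not called, and on gene-body counts COPB2 and ARCN1 turned to -0.24 and -0.25 and were called lower.

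All 8 COPI mRNAs were lower in the nucleus than in the cytoplasm, although COPB1 turned to 0.15 with no composition factor and COPG2 to 0.74 on gene-body counts. COPZ1 had 19.7, 18.2, 26.1 and 23.9 CPM in the nucleus (log2 fold change -2.42 ± 0.16 SE, adjusted p = 1.28e-11). ARCN1, the delta subunit, had 61, 55.3, 63.1 and 63.8 CPM in the nucleus against 248, 263, 263 and 265 CPM in the cytoplasm and 249.8, 257, 302 and 279.8 CPM in the wash. The nuclear libraries lay far below both, so that ARCN1 was lower in the nucleus than in the cytoplasm (log2 fold change -2.10 ± 0.11 SE, adjusted p = 4.51e-13), while wash and cytoplasm overlapped. The smallest difference of the class was that of COPB1, at -0.47 ± 0.11 SE (adjusted p = 0.000797). COPG1 and COPG2, paralogous gamma subunits, were at -1.42 and -1.24.

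Among the coat GTPases, ARF1 stood out, with the largest difference of all coat mRNAs in the nucleus over the cytoplasm and in the wash over the nucleus. ARF1, at chr1:228082660-228099212, recruits COPI and clathrin adaptors to the Golgi. It had 339, 324, 439 and 415 CPM in the wash and 72.2, 71.1, 72.1 and 66.9 CPM in the nucleus, against 649.6, 667, 683 and 603 CPM in the cytoplasm. The groups did not overlap: the nucleus was lowest and the cytoplasm highest. The wash over cytoplasm difference was -0.78 ± 0.11 SE (adjusted p = 9.16e-06) and the nucleus over cytoplasm difference -3.20 ± 0.12 SE (adjusted p = 1.71e-14), 9.21-fold lower.

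ARF5 was also lower in the wash, with 18, 17.7, 22.5 and 15.5 CPM there against 29.4, 28.8, 30.2 and 24.8 CPM in the cytoplasm, and its libraries did not overlap (log2 fold change -0.61 ± 0.17 SE, adjusted p = 0.0053). ARF3 (-0.28), ARF4 (-0.32), SAR1A (-0.16) and SAR1B (0.19) did not pass the test between wash and cytoplasm. Without cytoplasm replicate 4, the lowest of its group, ARF3 was called at -0.40 (adjusted p = 0.0308), and within prefix 1 ARF3 and ARF4 were called lower at -0.65 and -0.78. In the nucleus ARF4 (-2.08), ARF5 (-1.63), ARF3 (-1.07) and SAR1A (-1.05) fell below the cytoplasm.

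SAR1A and SAR1B are paralogs with reading frames of the same length, and of the pair SAR1A alone was called in the nucleus over the cytoplasm. SAR1A had 70.8, 77.3, 73.7 and 66.9 CPM in the nucleus, against 159, 175, 116 and 150.4 CPM in the cytoplasm. Its nuclear libraries lay below all cytoplasmic ones (log2 fold change -1.05 ± 0.14 SE, adjusted p = 9.8e-07). SAR1B had 90.5, 126, 97.2 and 94.9 CPM in the wash and 102, 95.2, 90.0 and 90.3 CPM in the nucleus, against 102, 102, 77.8 and 78.5 CPM in the cytoplasm, and all 3 fractions overlapped (log2 fold change 0.07 ± 0.15 SE, adjusted p = 0.686). The difference between the paralogs was itself not tested. SAR1B lies head to head with SEC24A on the opposite strand, and the genes share 483 bases (chr5:134648789-134649271). The strand setting of the counting is not given in the sources used here, so reads of that stretch cannot be assigned to either with certainty. On gene-body counts SAR1B turned to -0.74 in the nucleus over the cytoplasm.

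The clathrin chains split by subunit. CLTC, the heavy chain, at chr17:59619689-59696956, was higher in the wash than in the cytoplasm (log2 fold change 0.46 ± 0.16 SE, adjusted p = 0.0266). By the values given above, wash replicates 1, 2 and 4 lay above all 4 cytoplasmic libraries, and wash replicate 3 lay among them. The call was lost without wash replicate 1 or 2 or cytoplasm replicate 3 or 4, at log2 fold changes of 0.28 to 0.42 and an adjusted p of 0.0584 to 0.148. The light chains moved the other way. CLTA had 59.2, 47, 76.5 and 81.8 CPM in the wash and 16.6, 12.4, 17.4 and 12.5 CPM in the nucleus, against 91.8, 106, 97.8 and 112 CPM in the cytoplasm. CLTB had 14.7, 13.5, 22.1 and 22.3 CPM in the wash and 4.93, 5.15, 5.98 and 3.63 CPM in the nucleus, against 36.5, 34.8, 26.3 and 28.7 CPM in the cytoplasm. For both light chains the groups did not overlap, with the nucleus lowest. In the wash over the cytoplasm CLTA was at -0.62 ± 0.15 SE (adjusted p = 0.00216) and CLTB at -0.79 ± 0.18 SE (adjusted p = 0.00128). In the nucleus over the cytoplasm CLTA was at -2.78 ± 0.18 SE (adjusted p = 1.28e-11) and CLTB at -2.63 ± 0.23 SE (adjusted p = 1.28e-09), while CLTC was at -0.58 ± 0.16 SE (adjusted p = 0.00286) and turned to 0.03 with no composition factor.

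Among the adaptors, the subunits of AP2, which works in endocytosis, held both calls in the wash. AP2M1, the mu subunit that binds cargo, at chr3:184174689-184184091, had 361, 257, 375 and 384 CPM in the wash and 85.6, 104, 92.5 and 87.2 CPM in the nucleus, against 534, 523, 547 and 693 CPM in the cytoplasm. The groups did not overlap. AP2M1 was lower in the wash (log2 fold change -0.74 ± 0.14 SE, adjusted p = 0.000249) and in the nucleus (log2 fold change -2.64 ± 0.15 SE, adjusted p = 2.65e-12) than in the cytoplasm. AP2A1, an alpha subunit, had 93.1, 96, 91.5 and 117 CPM in the wash against 134, 126, 153 and 131 CPM in the cytoplasm without overlap (log2 fold change -0.45 ± 0.12 SE, adjusted p = 0.00443). With no filter on low counts that call was lost at -0.38 (adjusted p = 0.0524). AP2B1, the beta subunit, did not pass the test (-0.12), nor did AP1B1 (-0.04), AP1G1 (0.25), AP3B1 (0.07) or AP3D1 (-0.05).

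In the nucleus the adaptors differed among themselves. AP2A1 (-1.55), AP1B1 (-1.41), AP2B1 (-1.30) and AP3D1 (-1.16) were lower there than in the cytoplasm. AP1G1, the gamma subunit of the trans-Golgi adaptor, had 123, 118, 119 and 111 CPM in the nucleus against 157, 149, 109.9 and 107 CPM in the cytoplasm, and the groups overlapped (log2 fold change -0.15 ± 0.15 SE, adjusted p = 0.366). AP3B1, a subunit of the adaptor for lysosomal cargo, had 118, 119, 106 and 106 CPM in the nucleus against 105, 99.4, 98.7 and 98.1 CPM in the cytoplasm. Every nuclear library lay above every cytoplasmic one, but the difference did not pass the test (log2 fold change 0.16 ± 0.13 SE, adjusted p = 0.26). Unscaled by a composition factor, AP1G1 was called higher in the nucleus at 0.46 and AP3B1 at 0.77.

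Over all classes, 0 coat mRNAs were called higher and 28 of 34 (82.4%) lower in the nucleus than in the cytoplasm, beside 39.3% higher and 37.5% lower among all genes. The count at an unadjusted p under 0.05 was likewise 0 higher, and RLE factors and DESeq2 each gave 1 higher. The median log2 fold change was -1.13 for the coat mRNAs and 0.03 for all genes. With no composition factor the counts were 6 higher and 22 lower, beside 53.6% and 23.5% of all genes, at medians of -0.51 for the coat mRNAs and 0.64 for all genes. On gene-body counts they were 4 higher and 28 lower of 33 tested, beside 41.1% and 40.8%. With spike-in library sizes they were 0 higher and 34 lower, beside 27.1% and 50.9%, at medians of -1.76 and -0.60. The 6 mRNAs that were not called were SEC16A, SEC23IP, SEC24D, SAR1B, AP1G1 and AP3B1. Within prefixes 1 and 2 the median was -1.20 and -1.17.

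The wash was also set against the nucleus, in a comparison that shares the nuclear libraries with the one before it. In the wash over the nucleus 30 of 34 coat mRNAs (88.2%) were called higher and 0 lower, beside 36.7% higher and 35.4% lower among all genes, at a median of 1.06 against 0.06. The count of lower mRNAs at an unadjusted p under 0.05 and by DESeq2 was also 0. The largest differences were those of ARF1 (2.43), ARCN1 (2.16), CLTA (2.16) and AP2M1 (1.90). The 4 that were not called were COPE (0.38), SEC23IP (0.12), SAR1B (0.12) and AP3B1 (-0.09). COPE was called without wash replicate 2 (0.48) or nucleus replicate 2 (0.57), and AP1G1 (0.40) lost its call without wash replicate 2 (0.31) or nucleus replicate 4 (0.35) and with RLE factors (0.27). Without a composition factor the counts were 17 higher and 3 lower, beside 17.9% and 52.8% of all genes, at a median for all genes of -0.61, and with spike-in library sizes they were 0 higher and 33 lower, beside 93.5% lower, at a median for all genes of -2.47.

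An mRNA can be higher in the wash than in both the cytoplasm and the nucleus. By the joint test, which requires the wash to differ from the cytoplasm and from the nucleus in the same direction, 2 coat mRNAs of 34 (5.88%) were called higher, SEC16A (adjusted p = 0.00614) and COPA (adjusted p = 0.0324), and 0 lower. Among all genes 5.6% were called higher and 1.17% lower, so the share of coat mRNAs was near the background. At an unadjusted p under 0.05 there were 5 higher and 0 lower, and DESeq2 gave 3 higher and 0 lower. SEC16A kept its call without any 1 library of these fractions, at an adjusted p of up to 0.0438. COPA lost its call without cytoplasm replicate 1, 2 or 4 or wash replicate 2, 3 or 4, at an adjusted p of 0.0656 to 0.162, and within prefix 1 (0.365), but not within prefix 2 (0.000389). With the replicate number as a block 5 mRNAs were called higher, COPA, COPB1, SEC16A, SEC24D and CLTC, and with no composition factor or on gene-body counts 0 were. Among all genes, 399 of 15940 were called higher with no composition factor and 621 of 17015 on gene-body counts. The share of all genes with the block is not given here.

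Set against whole cells, coat mRNAs were enriched in the cytoplasm. There 23 of 34 (67.6%) were called higher and 0 lower, beside 22.3% higher and 27.6% lower among all genes, at a median of 0.43 against 0.00. With no composition factor the counts were 10 higher and 2 lower, beside 8.78% and 35.9% of all genes. With spike-in library sizes they were 0 higher and 32 lower, beside 92.2% lower, at a median for all genes of -1.24. In the nucleus over whole cells 0 were called higher and 28 lower (82.4%), beside 25.9% and 29.0% among all genes, at a median of -0.70. In the wash over whole cells 14 were called higher (41.2%) and 0 lower, beside 14.6% and 19.7%, at a median of 0.31. Of these 14, 6 belonged to the COPI coat and 6 to the COPII coat, 1 was the clathrin heavy chain and 1 the adaptor subunit AP1B1, and none of the GTPases was among them, 3 of which had an unadjusted p under 0.05. ARF1, for example, had 339, 324, 439 and 415 CPM in the wash against 332, 344, 322 and 347 CPM in whole cells, with overlapping libraries (log2 fold change 0.18 ± 0.11 SE, adjusted p = 0.227). ARCN1 had 249.8, 257, 302 and 279.8 CPM in the wash against 161, 171, 169 and 165 CPM in whole cells, with no overlap (log2 fold change 0.71 ± 0.10 SE, adjusted p = 1.45e-05). Without composition factor 1 was called higher and 4 lower in the wash over whole cells, beside 7.36% and 39.4% of all genes, and within prefix 1 the count of higher mRNAs was 6. The share of all genes within that prefix is not given here. Where these comparisons gave 0, the counts at an unadjusted p under 0.05 and by DESeq2 were 0 as well.

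The coat mRNAs were set beside 5 other lists of the secretory path. Of 52 tested mRNAs of membrane proteins inserted during translation, 36 were called higher and 1 lower in the wash over the cytoplasm, at a median of 0.95. Among them IGF2R was at 2.12 ± 0.13 SE, adjusted p = 2.16e-10, and SEL1L at 1.81 ± 0.24 SE, adjusted p = 4.91e-06. The 1 lower was PREB (-0.77 ± 0.15 SE, adjusted p = 0.000358), a membrane protein that activates SAR1. PREB was put in this list by gene symbol, and how it enters the membrane was not measured here. Of 39 mRNAs of tail-anchored and lipid-anchored proteins, whose proteins reach membranes after translation, 0 were called higher and 27 lower, at a median of -0.55. VTI1B (-1.21) and VAMP7 (-1.17), which drive vesicle fusion, had the largest differences. For the 0, no composition factor and DESeq2 gave 0 as well, and the replicate block gave 2. The coat mRNAs, with 5 higher, 9 lower and a median of -0.04, lay between these lists in count and median, and the difference between lists was not tested.

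**Figure D3:**
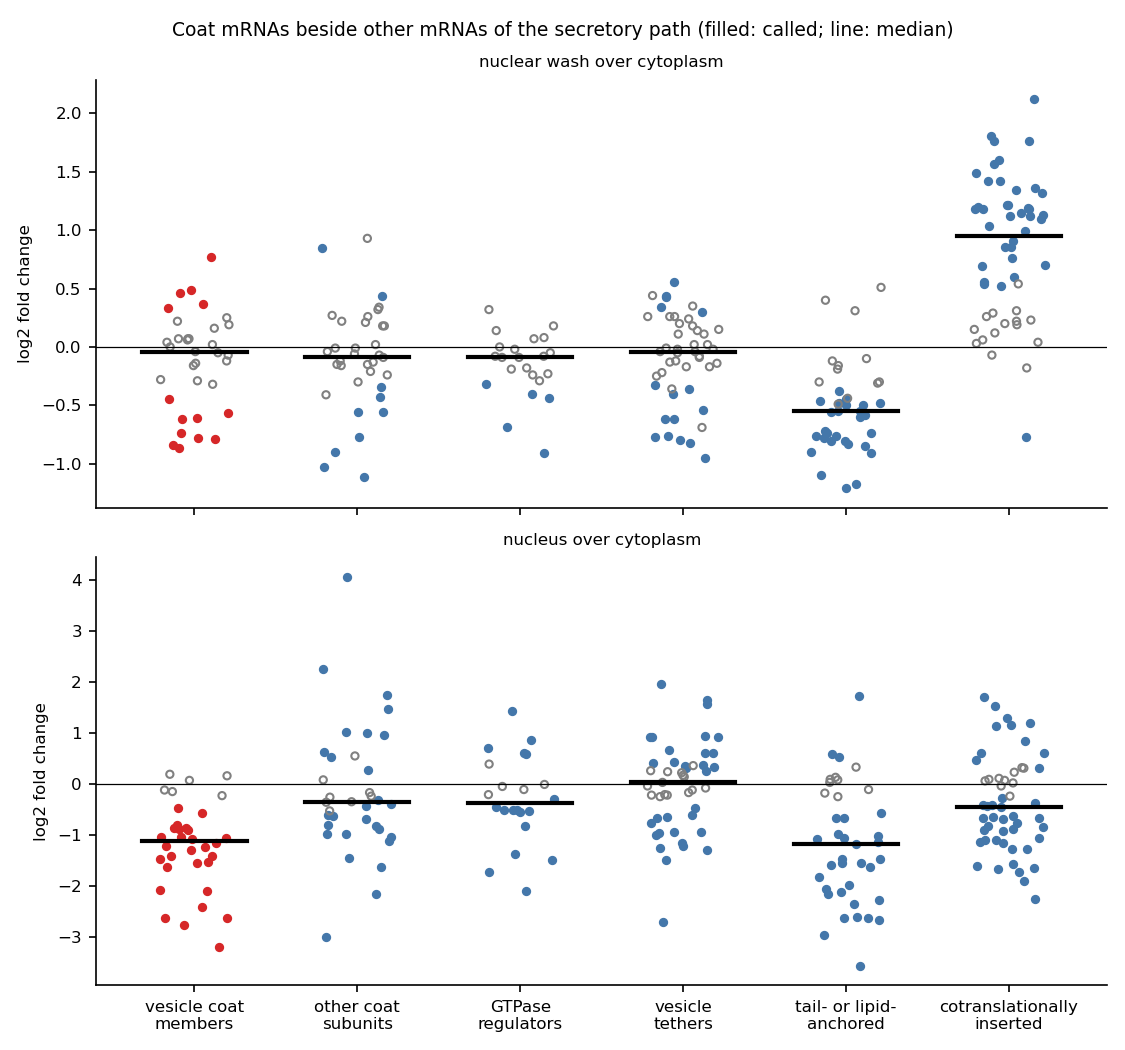
Log2 fold changes of the 34 coat mRNAs (red where called) beside 5 other lists of the secretory path (blue where called), each point 1 mRNA, open points not called and bars the medians, for the wash over the cytoplasm above and the nucleus over the cytoplasm below. Above, the coat mRNAs centre on -0.04 and the membrane proteins inserted during translation on 0.95, and below they centre on -1.13 and -0.45. With no composition factor the lower medians are -0.51 and 0.17.

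The lists closest in function to the coat had similar medians in the wash over the cytoplasm. Of 35 tested other coat subunits and adaptors, 2 were called higher, HIP1 (0.85) and AP4B1 (0.44), and 8 lower, led by AP3S1 (-1.11) and AP1S1 (-1.03), both small sigma subunits, at a median of -0.09. AP4B1 lost its call without wash replicate 1, 2 or 3 or cytoplasm replicate 2, 3 or 4, at 0.35 to 0.42. Of 22 mRNAs listed as regulators of the coat GTPases, 0 were called higher and 5 lower, led by GIT1 (-0.91), at a median of -0.09. RLE factors, DESeq2 and the replicate block each gave 1 higher. Of 47 tested vesicle tethers, 5 were called higher, led by NBAS (0.56) and GOLGA3 (0.44), and 11 lower, led by EXOC5 (-0.95) and VPS54 (-0.82), at a median of -0.04.

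In the nucleus over the cytoplasm the coat mRNAs differed in count from these neighbours. The tethers had 17 called higher and 15 lower at a median of 0.03, with GOLGA4 at 1.96 and GOLGA1 at 1.65 against TRAPPC1 at -2.72 and EXOC5 at -1.49. The other coat subunits and adaptors had 10 higher and 17 lower at -0.36, with AP1G2 at 2.25, GGA1 at 1.74, AP2S1 at -2.17 and AP1S1 at -3.01. In the nucleus TRAPPC1 averaged 1.56 CPM and AP1S1 2.29 CPM, so their fold changes rest on values near the floor. The list of GTPase regulators had 5 higher and 12 lower at -0.37, with CYTH2 at 1.43 and HSPA8 at -2.11. HSPA8 was put in this list by gene symbol, but it is the chaperone that strips clathrin from vesicles and not a GTPase regulator. Its nuclear libraries ran from 278 to 858 CPM. CYTH2 turned to -0.05 on gene-body counts. The tail-anchored and lipid-anchored proteins had 3 higher and 28 lower at -1.18, with GOLGB1 at 1.73 and RAB1B at -3.57. The membrane proteins inserted during translation had 11 higher and 31 lower at -0.45, with MAN2A2 at 1.70 and KDELR1 at -2.27. The coat mRNAs, with 0 higher and 28 lower, had the median closest to that of the tail-anchored and lipid-anchored list. These counts became, with no composition factor, 30 higher and 8 lower for the tethers, 15 and 7 for other coat subunits, 11 and 4 for the regulators, 9 and 23 for the anchored proteins, 22 and 12 for the inserted membrane proteins and 6 and 22 for the coat mRNAs.

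The coat mRNAs that fell in the wash, AP2A1 excepted, shared a short reading frame. Coding lengths of the 34 ran from 531 bases for COPZ1 to 7071 bases for SEC16A, with a median of 2617.5 against 1395 for tested protein-coding genes. Over the 34, the wash over cytoplasm difference followed coding length with a Spearman rho of 0.66 (Pearson r 0.73 with length in bases) and transcript length with a rho of 0.73. Over 11249 tested protein-coding genes the rho was 0.36 with coding length and 0.24 with transcript length. These are correlations across genes measured in the same libraries, which are not independent replicates, and no p is given. Fragments per gene scale with length too, so short genes have fewer counts.

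Divided at 1500 coding bases, a value chosen after the data were seen, 12 coat mRNAs were short and 22 long. Of the 12 short ones, 0 were called higher and 8 lower (66.7%) in the wash over the cytoplasm, at a median of -0.62, beside 15.7% higher and 37.6% lower at a median of -0.27 among 6114 protein-coding genes of that length. Of the 22 long ones, 5 were called higher (22.7%) and 1 lower (4.55%), at a median of 0.06, beside 26.9% and 13.5% at a median of 0.12 among 5135 genes. The exception among the long ones was AP2A1, and the short ones that were not called were SAR1A, SAR1B, ARF3 and ARF4. In the nucleus over the cytoplasm 11 of 12 short and 17 of 22 long coat mRNAs were called lower, at medians of -1.86 and -0.89, beside 57.3% and 30.9% lower at medians of -0.75 and 0.12 among all protein-coding genes of those lengths. GC content of the reading frame had a rho of -0.44 with the wash difference and -0.51 with the nuclear one over the 34 genes, and length and GC were not separated.

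**Figure D4:**
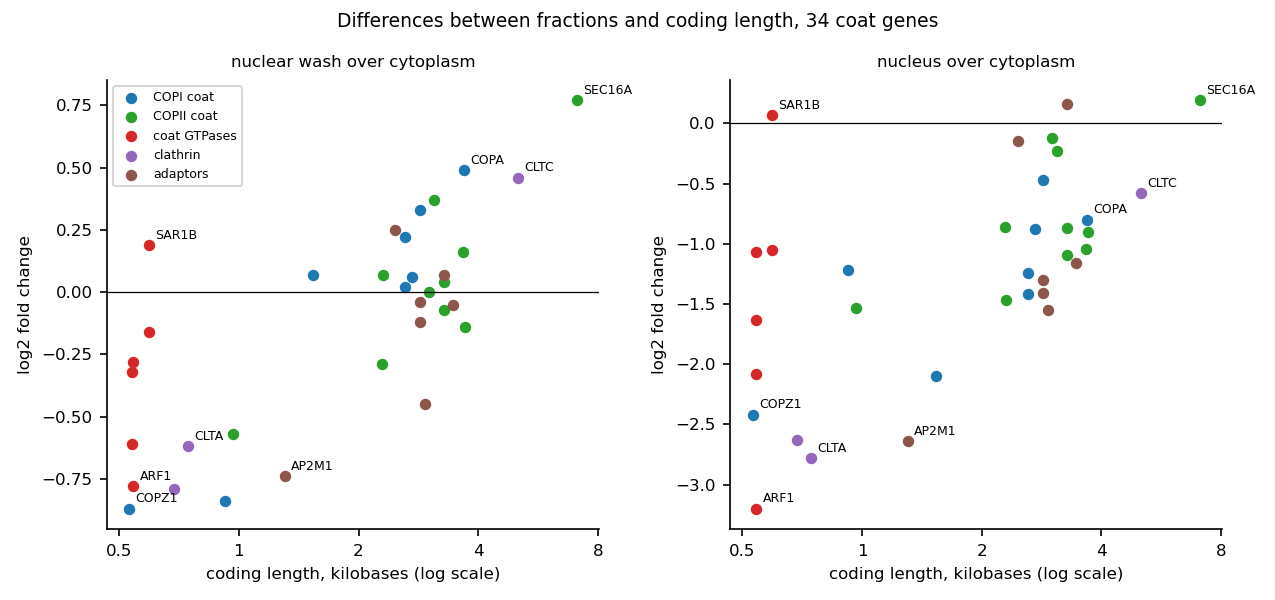
Log2 fold change of each of the 34 coat mRNAs against its coding length in kilobases on a log axis, for the wash over the cytoplasm on the left and the nucleus over the cytoplasm on the right, coloured by class. On the left the short mRNAs COPZ1 (-0.87) and ARF1 (-0.78) lie at the bottom and SEC16A (0.77) at the top right; on the right SAR1B (0.07) lies near SEC16A (0.19) despite its short reading frame.

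Intronic reads show how much of a gene's signal comes from RNA that is not fully spliced. They were taken as gene-body counts less exon counts. For COPE, COPZ1, ARF3 and AP2B1 the gene-body count fell below the exon count in 8 or more depleted libraries, so their intronic shares are void, and 30 coat genes remain. The mean intronic share of gene-body reads had a median over these 30 genes of 17.2% in the wash, 64.2% in the nucleus, 6.96% in the cytoplasm and 32.7% in whole cells. In the nucleus the shares ran from 6.04% for AP2M1 to 92.6% for CLTA.

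**Figure D5:**
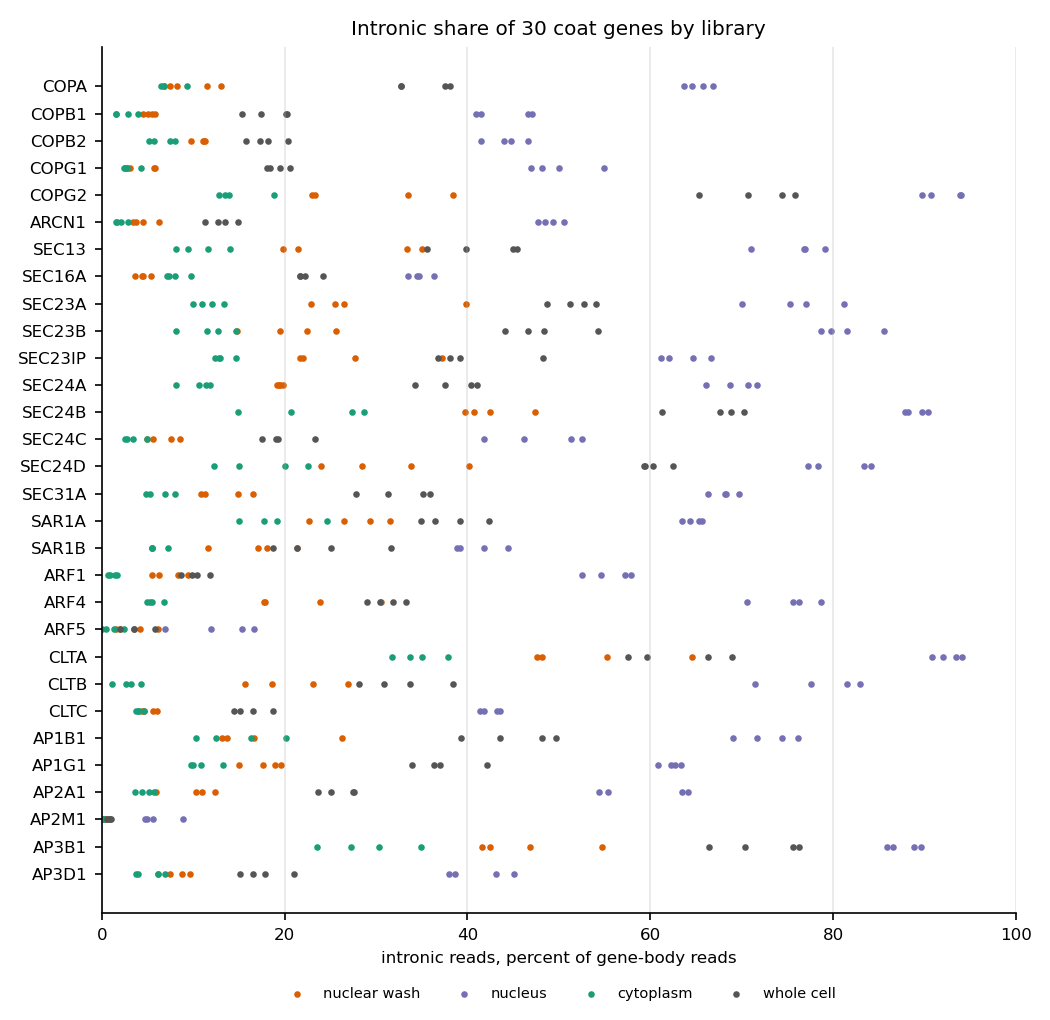
Intronic share of gene-body reads, in percent, in each of the 4 libraries of the nuclear wash, nucleus, cytoplasm and whole cell for 30 coat genes. Nuclear points lie at the right for all 30 genes, and for SEC16A all wash points (3.63 to 5.35%) lie to the left of the cytoplasmic ones (7.1 to 9.77%).

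By limma on the log2 ratio of intronic to exonic counts, 33 of 33 tested coat genes were called higher in the nucleus than in the cytoplasm, beside 88.7% of all 11235 genes tested, at a median of 4.57 against 3.80. In the wash over the cytoplasm 27 were called higher and 1 lower, beside 67.6% and 2.67%, at a median of 1.15 against 1.26. In the wash over the nucleus 33 of 33 were called lower, beside 84.2%, at a median of -3.46 against -2.45. Without the genes whose shares are void the counts were 30 higher, 25 higher with 1 lower, and 30 lower. ARF1 showed the order of fractions: its intronic share was 8.35, 9.44, 6.25 and 5.45% in the wash and 52.5, 57.2, 57.9 and 54.6% in the nucleus, against 1.65, 1.46, 0.897 and 0.72% in the cytoplasm. None of these libraries overlapped between fractions.

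SEC16A was the 1 coat gene with a lower ratio in the wash than in the cytoplasm. Its intronic share was 3.63, 5.35, 4.46 and 4.46% in the wash and 34.7, 34.5, 33.5 and 36.3% in the nucleus, against 7.96, 9.77, 7.1 and 7.4% in the cytoplasm. Every wash library lay below every cytoplasmic one, and the log2 ratio differed by -0.90 ± 0.18 SE (adjusted p = 0.000283) by limma. So for SEC16A the exon count was higher in the wash while the intronic share was lower. COPA (0.47), COPG1 (0.44), CLTC (0.33) and AP1B1 (0.27) did not pass the test in the wash over the cytoplasm, and neither did AP2B1, whose share is void. CLTB had the largest wash difference, 3.21 ± 0.33 SE (adjusted p = 4.78e-07) by limma, with 23.1, 26.9, 15.6 and 18.7% in the wash against 2.65, 4.33, 1.1 and 3.16% in the cytoplasm.

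The nuclear wash was also sequenced without rRNA depletion, which shows how far the library preparation moves a coat mRNA. In the undepleted over the depleted wash, 5 of 34 coat mRNAs (14.7%) were called higher and 1 (2.94%) lower, beside 7.75% and 3.35% among 11627 genes tested, at a median of -0.28 against -0.04. CPM in this comparison come from a separate fit of the wash libraries with its own TMM factors, so they differ from the wash values above. COPE had 34, 47.9 and 46.9 CPM in undepleted libraries against 17.1, 13, 16.1 and 14 CPM in depleted ones (log2 fold change 1.53 ± 0.19 SE, adjusted p = 0.000649). CLTB had 28.3, 33.6 and 46.9 CPM in undepleted libraries against 10.9, 9.73, 15.6 and 16.1 CPM in depleted ones (log2 fold change 1.46 ± 0.25 SE, adjusted p = 0.00452). For both mRNAs every undepleted library lay above every depleted one. AP3D1 (0.94 ± 0.21 SE (adjusted p = 0.0163)), SEC13 (0.74 ± 0.20 SE (adjusted p = 0.0335)) and ARF5 (0.76 ± 0.22 SE (adjusted p = 0.0495)) were also higher, and SAR1B was lower (-0.70 ± 0.20 SE (adjusted p = 0.0474)).

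Most of these calls rested on few libraries. ARF5 lost its call without any 1 of the 7 libraries, at 0.65 to 0.91. SAR1B lost its call without wash replicate 2, 3 or 4 or any undepleted library, at -0.53 to -0.86, SEC13 without wash replicate 2 or 3 or undepleted replicate 2 or 3, at 0.62 to 0.78, and AP3D1 without undepleted replicate 2 (0.92) or 3 (0.74). COPE and CLTB kept theirs without any 1 library. The counts without 1 library were 2 to 4 higher and 0 to 2 lower, ARF4 being called at -0.81 without wash replicate 1. Undepleted replicates 1, 2 and 3 share the first 2 characters of their column names with wash replicates 2, 3 and 4. With these pairs as a block and wash replicate 1 left out, 8 were called higher and 15 lower. ARF1 (-0.54), ARF4 (-0.83) and SEC31A (-0.47) were among the lower, and the shares of all genes in that fit are not given here. Leaving out the composition factor gave 2 higher and 19 lower, beside 3.45% and 30.9% of all genes, and moved the all-gene median to -0.56.

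COPE, CLTB, SEC13 and ARF5 were also among the mRNAs lower in the depleted wash than in the cytoplasm, and both comparisons share the depleted wash libraries. Their values side by side were 1.53 and -0.84 for COPE, 1.46 and -0.79 for CLTB, 0.74 and -0.57 for SEC13, and 0.76 and -0.61 for ARF5, the undepleted over depleted wash first and the depleted wash over cytoplasm second. ARF1, AP2M1 and COPZ1, which also fell in the wash, were at -0.50, 0.03 and -0.49 in the undepleted over the depleted wash and were not called there. The part of library preparation in the wash to cytoplasm differences was not tested, since undepleted libraries of the cytoplasm were not analysed here.

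Of the 34 genes, 25 overlap a gene on the other strand and 22 have exons that overlap exons of another gene, COPA with NCSTN, COPB2 with MRPS22, SEC31A with THAP9 and AP2A1 with FUZ among them. SEC16A overlaps C9orf163, and CLTC overlaps PTRH2. Of the genes named from other lists, AP4B1, AP3S1, GOLGA3, EXOC5, PREB, VTI1B and AP1G2 also have exons that overlap those of another gene. So do CYTH2, HSPA8, GOLGA4, GOLGA1, TRAPPC1, MAN2A2 and RAB1B. Without the strand setting of the counting, the share of such reads in these values is not known. SEC23B, SEC23IP, SEC24D and AP2M1 overlap no other annotated gene. COPG1 and COPG2, SEC23A and SEC23B, SAR1A and SAR1B and the ARF genes are close paralogs, and how reads that fit more than 1 copy were counted is not given in the sources used here.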

How the data were processed

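Total RNA from K562 fractions was extracted with Trizol LS, mixed with synthetic yeast spike-ins and made into stranded libraries, per the labels' protocols. Reads were trimmed with cutadapt 2.5, aligned with STAR 2.7.0a to hg38 and counted with featureCounts 1.6.2, per the submitters' processing notes. The authors deposited raw counts per gene over exons and over gene bodies. The sources used here give neither the annotation nor the strand setting. Of 58051 human identifiers 57447 matched GENCODE release 29. The 11 yeast rows, 0.192 to 4.14% of exon counts, stayed out of tests.

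Members and gene lists were chosen with earlier results of these data known. Exon counts were tested with edgeR 4.0.16 (TMM factors, low counts filtered by expression, quasi-likelihood F-test, 16 depleted libraries in 1 fit and 7 wash libraries in another). Benjamini-Hochberg adjustment ran over every gene tested, and genes were called under 0.05. The joint test took the larger p of its 2 comparisons. Log2 ratios of intronic to exonic counts (pseudocount 0.5, at least 10 gene-body counts) were tested with limma 3.58.1. An SE is the fold change divided by the root of F. Both tests were checked on simulated data, in which a small share of genes was changed in 1 fraction, up or down. The other genes were left unchanged, unlike in these data, where many genes differ between fractions. For edgeR such data cannot show how many calls are false where the assumption behind the TMM factors fails. Across the comparisons of depleted fractions, edgeR recovered 8 to 28.1% of 1.5-fold, 54 to 74.2% of 2-fold and 88.2 to 100% of 4-fold changes. It made 4 to 9 false calls per comparison. The ratio test recovered 77.7 to 79.1% of 4-fold changes among genes with neither a very low nor a very high intronic share. Its false calls among 11235 genes ranged from 10 in the wash over the cytoplasm to 80 in the nucleus over the cytoplasm. A gene that was not called may therefore still differ. Alternatives were RLE, no and spike-in factors, no filter, DESeq2 1.42.0, gene-body counts, other ratio settings, a replicate block, each column prefix, leaving out each library and, added after seeing the data, leaving out genes whose intronic counts are void. Same-numbered depleted libraries deviated together (r 0.104 to 0.379 over 24 pairs). Wash libraries matched by the first 2 characters of the column name did so too (r 0.214 to 0.464). The best match was the own number in 11 of the 24 depleted pairs, and otherwise the other library of the same column prefix. This measure therefore does not show that the numbers pair the samples, and the labels do not say what a number stands for. All 34 coat genes were named, and from each other list the 2 called genes with the largest fold change per direction at a mean of at least 5 CPM, except 1 that is not reported here.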

Additional observations from a re-analysis of the deposited data

Results flagged for a closer look

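Of 256 sets of 4 libraries, each holding 1 coat gene in 1 depleted group by CPM or by intronic share, 6 (2.34%) had 1 library far from the other 3 by Dixon's test, where chance gives about 1 in 20. Among CPM values, ARCN1 had 247.5 CPM in cytoplasm replicate 1, below 263 to 265 CPM in the other cytoplasmic libraries. AP2M1 had 692.5 CPM in cytoplasm replicate 4, above 523 to 547 CPM in the others. COPG1 had 36.8 CPM in nucleus replicate 1, below 47 to 49.1 CPM in the other nuclear libraries. Among intronic shares, COPA had 9.30% in cytoplasm replicate 1, above 6.45 to 6.81% in the others, and SAR1B had 7.20% in cytoplasm replicate 4, above 5.44 to 5.54% in the others. COPB2 had 9.78% in wash replicate 1, below 11 to 11.2% in the other wash libraries.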

How the results depend on the processing

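Scaling moved the counts of coat mRNAs most. With no composition factor, the counts called higher and lower were 2 and 9 for the wash over the cytoplasm, 6 and 22 for the nucleus over the cytoplasm, 17 and 3 for the wash over the nucleus, 10 and 2 for the cytoplasm over whole cells, 3 and 17 for the nucleus over whole cells, 1 and 4 for the wash over whole cells, 2 and 19 for the undepleted over the depleted wash, and 0 higher in the joint test. The medians over all genes moved with it, to 0.64, -0.61, -0.25, 0.41, -0.41 and -0.56 in these comparisons after the first. Of 15940 genes, 6879 were then called higher and 2895 lower in the nucleus over whole cells, and 399 higher in the joint test. With spike-in library sizes, 0 were called higher and 34 lower for the wash over the cytoplasm, 0 and 33 for the wash over the nucleus, 0 and 32 for the cytoplasm over whole cells, 0 and 34 for the wash over whole cells, 2 and 0 for the undepleted over the depleted wash, and 0 and 33 in the joint test. All-gene medians were then -3.10, -2.47, -1.24, -4.51 and -0.26 for the first 5 of these, and -1.83 for the nucleus over whole cells. By the same setting, all 15940 genes tested were called lower in the wash over whole cells, and 13807 of them in the joint test. In the undepleted over the depleted wash, 330 of 11627 genes were called higher and 141 lower. RLE factors and DESeq2 each gave 1 higher in the nucleus over the cytoplasm and 0 and 4 lower in the undepleted over the depleted wash, and RLE factors moved the all-gene median to 0.16 in the nucleus over the cytoplasm and 0.20 over whole cells. Of 11627 genes, 372 by RLE factors and 465 by DESeq2 were lower in the undepleted over the depleted wash. Without a filter on low counts 5 were lower in the undepleted over the depleted wash.

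On gene-body counts, 2 were called higher and 17 lower in the wash over the cytoplasm, 4 higher in the nucleus over the cytoplasm, 3 lower in the wash over the nucleus, 2 lower in the cytoplasm over whole cells, 3 higher in the nucleus over whole cells, 2 lower in the wash over whole cells, 0 lower in the undepleted over the depleted wash and 0 higher in the joint test. Of 17015 genes, 6031 were lower in the wash over the nucleus and 621 higher in the joint test. Over whole cells, 5623 were lower in the cytoplasm, 3204 higher in the nucleus and 3823 lower in the wash. In the undepleted over the depleted wash 257 of 13502 genes were lower. Within prefix 1, 3 were higher in the wash over the cytoplasm, 6 in the wash over whole cells and 1 in the joint test. Within prefix 2, 1 was higher in the nucleus over the cytoplasm and 1 lower in the wash over whole cells. The replicate block gave 5 higher in the joint test, against 2 without it. In the undepleted over the depleted wash it gave 8 higher and 15 lower, against 5 and 1. There the block was the first 2 characters of the column name, and wash replicate 1 was left out. The block moved no other count of calls by over 1.5 times. The shares of all genes within each prefix and with a block are not given here.

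With no composition factor the nucleus over cytoplasm difference turned to 0.15 for COPB1, 0.49 for SEC23IP, 0.39 for SEC24D, 0.03 for CLTC and 0.46 for AP1G1, and the wash over nucleus difference to -0.12 for SEC16A, -0.11 for SEC23A, -0.54 for SEC23IP, -0.09 for SEC24D, -0.55 for SAR1B and -0.27 for AP1G1. On gene-body counts the nucleus over cytoplasm difference turned to 0.74 for COPG2, -0.80 for SEC16A, 0.44 for SEC24B, 0.38 for SEC24D, -0.74 for SAR1B and -0.05 for CYTH2, the wash over nucleus difference to -0.80 for COPG2, -0.50 for SEC24B, -0.10 for SEC24D and -0.10 for AP2B1, and the wash over cytoplasm difference to -0.24 for COPB2 and -0.25 for ARCN1. The cause was not tested for any of these. The gene-body counts of COPE, COPZ1 and AP2B1 lay below their exon counts in 16, 15 and 8 depleted libraries, so they miss exon reads. These genes stayed in the gene-body tests, and their values there carry that limit. Leaving out 1 library gave 3 to 4 higher and 9 to 10 lower in the wash over the cytoplasm, 28 lower in the nucleus over the cytoplasm, 29 to 31 higher in the wash over the nucleus, 1 to 2 higher in the joint test, and 2 to 4 higher and 0 to 2 lower in the undepleted over the depleted wash. For the intron to exon ratio the same gave 33 higher in the nucleus over the cytoplasm, 25 to 29 higher and 1 lower in the wash over the cytoplasm, and 33 lower in the wash over the nucleus. Depth limits the nuclear values of the short mRNAs most, down to 7 counts for CLTB, and the undepleted wash, down to 11 counts for SEC23A.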

Other observations

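By gene, the cytoplasm over whole cell differences were largest for CLTB (0.98), ARF1 (0.95), CLTA (0.83) and COPZ1 (0.77), the same mRNAs that stood low in the nucleus over the cytoplasm, and both comparisons share the cytoplasmic libraries. The 11 coat mRNAs that were not called there by edgeR ran from -0.20 for AP3B1 to 0.24 for COPB2 and included SEC16A (-0.18), COPA (0.17), CLTC (-0.03) and SAR1B (0.14). AP3B1 had 105, 99.4, 98.7 and 98.1 CPM in the cytoplasm, below all whole-cell libraries with 121, 116, 112 and 112 CPM.

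CLTA and AP3B1 had the highest mean intronic shares of the 30 coat genes in the wash and in the cytoplasm. CLTA had 55.3, 64.5, 48.2 and 47.6% in the wash and 92, 94.1, 90.8 and 93.4% in the nucleus, against 37.9, 33.7, 35.1 and 31.7% in the cytoplasm. AP3B1 had 41.6, 54.8, 46.9 and 42.5% in the wash and 89.6, 88.8, 86.6 and 85.9% in the nucleus, against 30.4, 34.9, 23.5 and 27.2% in the cytoplasm. GNE lies on the other strand over part of CLTA, and whether its reads entered the gene-body count of CLTA was not tested. AP2M1, which overlaps no other annotated gene, had the lowest shares, 0.305, 0.481, 0.19 and 0.478% in the wash and 4.98, 4.73, 8.85 and 5.62% in the nucleus, against 0.148, 0.164, 0.107 and 0.0676% in the cytoplasm.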
